A study of Mus musculus with 12 samples.

Results

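The 10 genes described here are members of the Notch pathway: the receptors Notch1, Notch2 and Notch3, the ligands Dll1, Dll3, Jag1 and Jag2, and the target genes Hes1, Hes5 and Hey1. They were named as a pathway set with earlier results of these data known, and all 10 were found among the 22667 gene IDs of the tables and passed the filter on low counts. Notch signalling passes between touching cells. A ligand on one cell binds a receptor on its neighbour, the receptor is cut, and its inner part enters the nucleus, where it joins the DNA-binding protein RBPJ and switches on repressors of the Hes and Hey families. In the embryonic forebrain the pathway is known for holding radial glia, the dividing stem cells of the cortical wall, in an undifferentiated state, while neighbouring cells that make more ligand leave to become neurons.

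RNA was sequenced from hippocampus and cortex of mouse embryos at day E18.5, in 4 groups of 2 libraries: hippocampus of KO embryos, hippocampus of wild-type control embryos, cortex of KO embryos and cortex of control embryos. The KO is of Srrm4 (nSR100), a splicing regulator of neurons, and rests on a conditional EUCOMM allele whose exons 7 and 8 were removed by a CMV-cre transgene, active in all tissues, on a C57Bl/6N background. The ES cells had been aggregated with outbred ICR morulae. The labels do not say whether libraries came from separate animals or from pools, so a p-value speaks of how far these libraries vary, and part of that may be technical. Nor do they say whether hippocampus and cortex with the same replicate number came from the same embryos. The main tests took them as unpaired.

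In GENCODE M21, genes on the opposite strand overlap exons of Notch1, Notch3, Dll1 and Hes5, and a gene on the same strand overlaps those of Notch2. None of these has a row in the tables and no source used here gives the strand setting, so reads from them cannot be told apart from the members' own.

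Libraries held 58210499 to 140052443 counts, and the members had 327 to 20499 counts in a library, so counting error was small for all 10. Srrm4 was at 5.68 and 6.16 RPKM (reads per kilobase of gene, scaled to the size of the library) in KO hippocampus, against 26.0 and 27.9 RPKM in control hippocampus, and at 8.12 and 6.97 RPKM in KO cortex, against 25.2 and 24.2 RPKM in control cortex. The tissue labels went with their markers: all 6 genes of hippocampal identity were higher in hippocampus and 5 of 6 genes of neocortical identity were lower, in KO and in control. The exception was Fezf2, higher in hippocampus in both. Replicate 1 of KO hippocampus stood apart, with 4.40% mitochondrial counts against 3.14 to 3.44% elsewhere, and so did replicate 2 of control hippocampus, in choroid plexus genes (values below). Y-linked genes summed to 0.412 and 0.319 CPM (counts scaled to library size) in replicate 2 of KO hippocampus and KO cortex, against 148 and 144 CPM in replicate 2 of control hippocampus and control cortex, and to 25.4 to 49.8 CPM in replicate 1 of all groups, and the labels give no sex. The part of sex in the comparisons of KO with control was not tested.

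The pathway's own readout starts at DNA that RBPJ binds, and the promoter of Hes5 shows such letters at 2 places. The core of the RBPJ motif, GTGGGAA, was searched on both strands (TTCCCAC is the same core on the other strand; the spellings cannot overlap) in the 250 bases before each RefSeq start on GRCm38.p6. The table used held 9 promoters of 8 members, without Hes1 and Hey1. The core stood in 1 of the 9, that of Hes5, against 1779 of all 32851 promoters (5.42%). Of the other pathway genes only 37 were covered, with 49 promoters. The core stood in 5 of these 49 promoters, in Hes7, Hey2, Lfng, Psen2 and Spen. In Hes5 the matches lie 226 and 83 bases before the start, on opposite strands and 136 bases apart, and 18 of all promoters (0.0548%) held the core on both strands. Shown are Hes5, the member with the highest level, Hey2 and Lfng, the pathway genes with a match that rank among the most changed below, and Notch1, which has none; each reads 5′ to 3′ on the gene's strand with the core in capitals. They lie at chr4:154960673-154960922 on the plus strand (Hes5), chr10:30842784-30843033 on the minus strand (Hey2), chr5:140607091-140607340 on the plus strand (Lfng) and chr2:26503823-26504072 on the minus strand (Notch1). A match describes the letters and is not evidence of binding. Whether the core goes with differences between the tissues was not tested.
Hes5: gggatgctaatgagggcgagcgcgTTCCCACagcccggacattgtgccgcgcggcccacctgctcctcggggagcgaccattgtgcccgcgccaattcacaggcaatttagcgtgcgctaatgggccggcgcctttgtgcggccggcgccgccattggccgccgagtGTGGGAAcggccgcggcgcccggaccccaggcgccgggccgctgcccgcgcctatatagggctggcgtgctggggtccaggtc
Hey2: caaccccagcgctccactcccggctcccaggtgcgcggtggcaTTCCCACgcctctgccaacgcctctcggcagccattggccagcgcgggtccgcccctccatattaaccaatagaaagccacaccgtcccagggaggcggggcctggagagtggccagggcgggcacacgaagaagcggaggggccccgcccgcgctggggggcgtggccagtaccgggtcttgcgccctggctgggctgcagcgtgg
Lfng: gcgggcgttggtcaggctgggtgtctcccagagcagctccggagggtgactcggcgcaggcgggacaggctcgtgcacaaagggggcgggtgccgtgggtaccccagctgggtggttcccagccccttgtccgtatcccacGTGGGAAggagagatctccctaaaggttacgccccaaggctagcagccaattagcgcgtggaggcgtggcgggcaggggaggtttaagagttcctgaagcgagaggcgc
Notch1: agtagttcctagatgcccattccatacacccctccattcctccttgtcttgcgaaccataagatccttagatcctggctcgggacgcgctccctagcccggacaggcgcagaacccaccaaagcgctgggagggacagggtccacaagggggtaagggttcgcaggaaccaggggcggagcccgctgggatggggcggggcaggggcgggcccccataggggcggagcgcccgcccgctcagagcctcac

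On the RPKM scale, which divides by gene length and so allows genes to be compared, the target Hes5 had the highest mean level over the 8 libraries at 21.5 RPKM, above 74.3% of the genes tested. Notch1 followed at 12.6 RPKM, Jag2 at 12.3, Hey1 at 10.8 and Dll1 at 10.3 RPKM, 4 neighbours whose ranges over the libraries overlap. Notch2 averaged 8.47 RPKM, Hes1 5.41 RPKM and Notch3 5.06 RPKM, again with overlapping ranges. Jag1 at 3.25 RPKM and Dll3 at 2.91 RPKM were the lowest, and Dll3 still stood above 32% of the genes tested. The order was not the same in both tissues: Notch1 lay above Jag2 in every hippocampus library and below it in every cortex library.

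**Figure D1:**
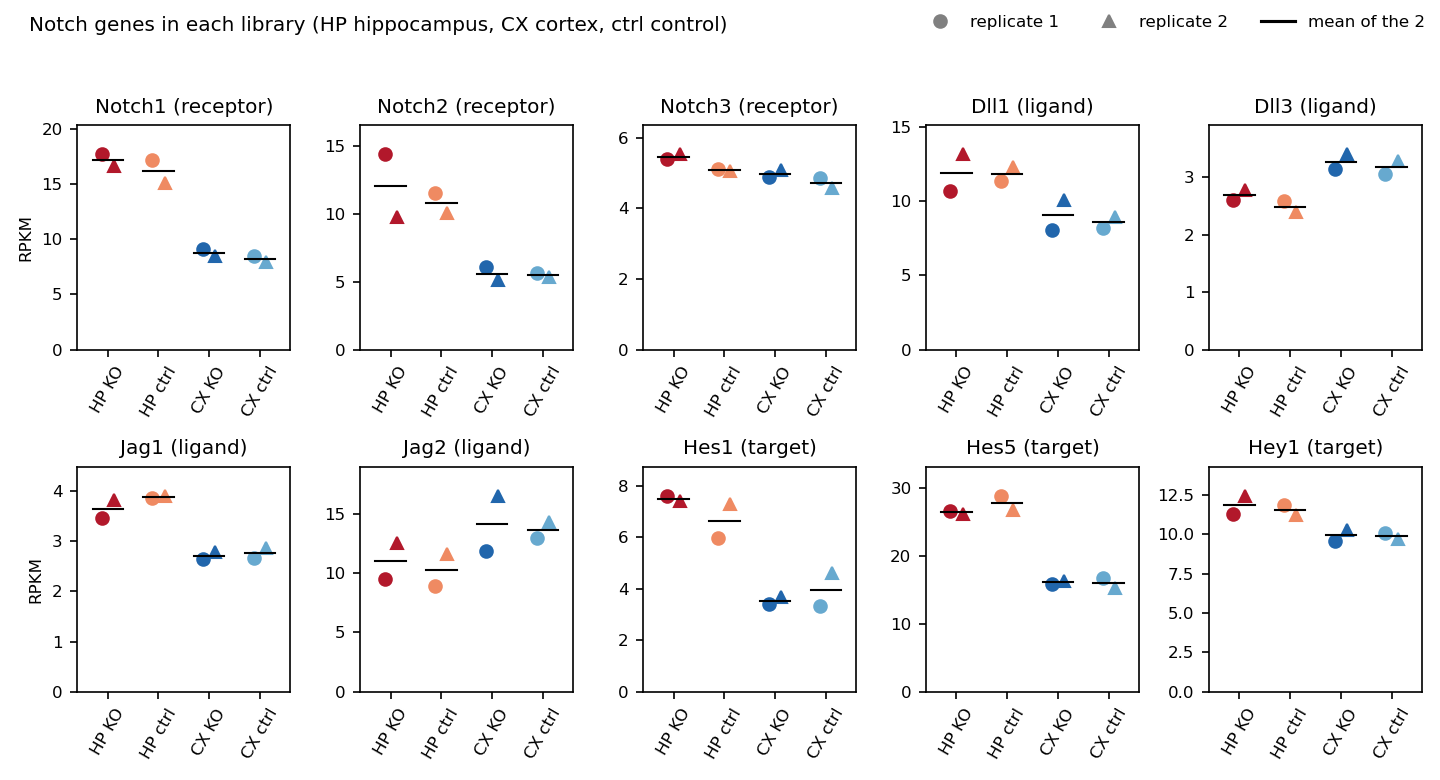
RPKM of each of the 10 genes in each library, with hippocampus KO, hippocampus control, cortex KO and cortex control from left to right; circles are replicate 1, triangles replicate 2 and black lines the mean of both. Notch1, Notch2, Dll1, Jag1, Hes1, Hes5 and Hey1 lie higher in all 4 hippocampus libraries than in all 4 cortex libraries. Dll3 lies lower, while KO and control of a tissue lie close together.

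The clearest difference among these genes was between the tissues. In hippocampus, Notch1, Notch2, Jag1, Hes1 and Hes5 were higher than in cortex, in KO and in control, and Dll3 was lower in both; Dll1 was higher in control. By edgeR's quasi-likelihood test on counts, 6 of 10 members passed an adjusted p of 0.05 in KO (5 higher, 1 lower), where 40.0% of all 16111 genes tested passed, 21.2% higher and 18.8% lower. In control 7 of 10 passed (6 higher, 1 lower), where 33.9% of all genes passed, 19.0% higher and 14.9% lower. Called in both genotypes were 5 members higher and 1 lower, where 17.0% and 13.8% of all genes were. The median log2 fold change of the members, hippocampus over cortex, was 0.30 in KO and 0.40 in control, against 0.03 and 0.01 over all genes. Because the members were chosen with such results known, these shares and medians describe the 10 genes and are no test of the pathway. With the 4 libraries of a genotype fitted alone, 4 members passed in KO (4 higher, 0 lower), where 4983 of 15833 genes did. Jag1 (edgeR adjusted p = 0.0803) and Dll3 (0.0912) were then lost. In control 8 passed (6 higher, 2 lower), where 5985 of 15824 genes did. With 1 library left out, the number of members fell most without replicate 2 of cortex in KO and without replicate 1 of cortex in control. Over all genes the split was 3415 higher to 3027 lower in KO and 3066 to 2398 in control. With limma on log2(RPKM + 0.1) it was 4273 to 2195 and 3546 to 1845, with medians of 0.13 and 0.08. In these bulk samples, fewer cells of a type and less RNA per cell cannot be told apart.

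Of the receptors, Notch1, which marks and maintains radial glia, had 17.7 and 16.7 RPKM in KO hippocampus, 17.2 and 15.1 RPKM in control hippocampus, 9.15 and 8.44 RPKM in KO cortex and 8.50 and 7.96 RPKM in control cortex. All 4 hippocampus libraries lay above all 4 cortex libraries, a pattern that 32.6% of all genes showed. The log2 fold change, hippocampus over cortex, was 0.86 in KO (SE 0.10, edgeR adjusted p = 0.000353) and 0.90 in control (SE 0.10, adjusted p = 0.00031).

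Notch2, a second receptor of progenitors, had 14.4 and 9.72 RPKM in KO hippocampus, 11.51 and 10.04 RPKM in control hippocampus, 6.08 and 5.09 RPKM in KO cortex and 5.67 and 5.32 RPKM in control cortex. Its groups also did not overlap between tissues, with log2 fold changes of 1.00 in KO (SE 0.18, edgeR adjusted p = 0.00313) and 0.90 in control (SE 0.18, adjusted p = 0.00567). The highest value belonged to the library of KO hippocampus that stood apart, and without it Notch2 still passed in KO.

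Notch3, which is known from the pericytes and smooth muscle of vessels as well as from progenitors, was nearly level across tissues. It had 5.40 and 5.53 RPKM in KO hippocampus, 5.10 and 5.06 RPKM in control hippocampus, 4.89 and 5.08 RPKM in KO cortex and 4.87 and 4.57 RPKM in control cortex. The fitted log2 fold change was 0.03 in KO (95% confidence interval -0.15 to 0.20) and 0.03 in control (-0.14 to 0.21), with edgeR adjusted p of 0.817 and 0.784, and its sign in KO turned with DESeq2 (-0.0034) and with RLE scaling (-0.0030). As a share of the summed RPKM of the 3 receptors, Notch3 therefore made up 14.4 to 17.3% in hippocampus and 24.3 to 27.3% in cortex. Notch1 made up 47.2 to 52.2% in hippocampus and 44.6 to 45.5% in cortex. Vessel genes were measured beside Notch3. Of 8 pericyte and smooth muscle genes, 3 in KO and 4 in control were higher in hippocampus. Of 8 endothelial genes 2 and 4 were higher, and no gene of either list was lower. Of all genes, 21.2% were higher in KO and 19.0% in control, and 18.8% and 14.9% were lower. The endothelial count in KO was thus close to the share of all genes. Summed levels of the pericyte list were 202 to 208 CPM in KO hippocampus and 209 to 223 CPM in control hippocampus. They were 149 to 156 CPM in KO cortex and 154 to 166 CPM in control cortex. No gene of either list was at 0 in both libraries of any group. The endothelial list summed to 223 to 253, 241 to 252, 172 to 194 and 172 to 181 CPM in the same groups. The part of vessel cells in the levels of Notch3 or Jag2 was not tested.

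Among the ligands, Jag1 had 3.46 and 3.82 RPKM in KO hippocampus, 3.87 and 3.90 RPKM in control hippocampus, 2.64 and 2.79 RPKM in KO cortex and 2.66 and 2.87 RPKM in control cortex. The tissues did not overlap, and the log2 fold change was 0.32 in KO (SE 0.09, edgeR adjusted p = 0.0263) and 0.42 in control (SE 0.09, adjusted p = 0.00884). The call in KO was lost without any of 4 single libraries: replicate 2 of KO hippocampus (adjusted p = 0.0917), replicate 2 of control hippocampus (0.0501), or either KO cortex library (0.132 and 0.0717). In control it was lost without replicate 1 of hippocampus (0.0624) or of cortex (0.0754).

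Dll1, the Delta ligand of cells leaving the progenitor pool, had 10.7 and 13.2 RPKM in KO hippocampus, 11.4 and 12.3 RPKM in control hippocampus, 8.07 and 10.1 RPKM in KO cortex and 8.20 and 8.96 RPKM in control cortex. Both tissues were apart in each genotype, and the lowest hippocampus value lay just above the highest cortex value. The log2 fold change was 0.29 in KO (SE 0.13, edgeR adjusted p = 0.108) and 0.39 in control (SE 0.13, adjusted p = 0.0469). With the replicate number as a block, Dll1 passed in KO too (edgeR adjusted p = 0.0175). The control call stood close to the threshold: it was lost without any 1 of the 4 control libraries (adjusted p from 0.110 to 0.218) and with RLE scaling (0.0535), and Dll1 passed in KO without replicate 1 of hippocampus (0.037).

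Dll3, a divergent ligand that acts inside the cell that makes it and is known to be unable to activate Notch on neighbours, went the other way. It had 2.61 and 2.78 RPKM in KO hippocampus, 2.58 and 2.39 RPKM in control hippocampus, 3.14 and 3.40 RPKM in KO cortex and 3.06 and 3.29 RPKM in control cortex. All hippocampus libraries lay below all cortex libraries, as they did for 18.0% of all genes. The log2 fold change was -0.39 in KO (SE 0.11, edgeR adjusted p = 0.0255) and -0.42 in control (SE 0.11, adjusted p = 0.0202). In KO the call was lost without replicate 1 of hippocampus (adjusted p = 0.102) or either cortex library (0.0678 and 0.101) and with limma on log2(RPKM + 0.1) (0.0883), and in control without replicate 2 of hippocampus (0.157) or either cortex library (0.0749 and 0.104).

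Jag2, the ligand with the highest level in cortex, had 9.50 and 12.6 RPKM in KO hippocampus, 8.87 and 11.6 RPKM in control hippocampus, 11.8 and 16.5 RPKM in KO cortex and 12.9 and 14.3 RPKM in control cortex. Replicate 2 was the higher library in every group, and the tissues overlapped in KO. The log2 fold changes of -0.46 in KO and -0.49 in control (SE 0.19 each) did not pass in edgeR, with adjusted p of 0.0822 and 0.0788. They passed with DESeq2 (0.0241 and 0.0208) and in edgeR with the replicate number as a block (0.00264 and 0.00195). Between libraries of the same number, hippocampus minus cortex in log2 CPM was -0.45 and -0.47 in KO and -0.61 and -0.38 in control. Among the 4 ligands, Dll1 made up 40.6 to 42.6% of the summed RPKM in hippocampus and 30.4 to 31.4% in cortex, and Jag2 33.3 to 38.9% in hippocampus and 46.1 to 50.3% in cortex. The ligand with the largest share was thus Dll1 in every hippocampus library and Jag2 in every cortex library. The sum of the 4 ligands was similar in both tissues, 26.2 to 32.3 RPKM in hippocampus and 25.7 to 32.7 RPKM in cortex, while the sum of the 3 receptors was 30.2 to 37.5 RPKM in hippocampus and 17.9 to 20.1 RPKM in cortex.

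The 3 targets differed in how far apart the tissues lay. Hes5, a repressor of neuronal differentiation genes and a direct target of Notch in neural stem cells, had 26.6 and 26.2 RPKM in KO hippocampus, 28.7 and 26.7 RPKM in control hippocampus, 15.8 and 16.3 RPKM in KO cortex and 16.7 and 15.2 RPKM in control cortex. The gap between tissues was wider than any spread within a group. The log2 fold change was 0.61 in KO (SE 0.09, edgeR adjusted p = 0.00131) and 0.72 in control (SE 0.09, adjusted p = 0.000591).

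Hes1, a repressor that works with Hes5 and that other signals also switch on, had 7.60 and 7.42 RPKM in KO hippocampus, 5.96 and 7.29 RPKM in control hippocampus, 3.42 and 3.67 RPKM in KO cortex and 3.33 and 4.61 RPKM in control cortex. The tissues did not overlap, but the 2 control libraries of each tissue lay farther apart than the KO ones. The log2 fold change was 0.98 in KO (SE 0.16, edgeR adjusted p = 0.00175) and 0.67 in control (SE 0.16, adjusted p = 0.0114), and the control call was lost without replicate 2 of hippocampus (0.0795) or replicate 1 of cortex (0.0819).

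Hey1, of the related Hey family, had 11.3 and 12.4 RPKM in KO hippocampus, 11.8 and 11.2 RPKM in control hippocampus, 9.55 and 10.3 RPKM in KO cortex and 10.1 and 9.72 RPKM in control cortex. Its RPKM did not overlap between tissues, yet the fitted log2 fold change was 0.15 in KO (95% confidence interval -0.07 to 0.37) and 0.15 in control (-0.07 to 0.36), with edgeR adjusted p of 0.25 and 0.279. Only limma on log2(RPKM + 0.1) put it past the threshold, in KO at an adjusted p of 0.0495. Of the summed RPKM of the 3 targets, Hes5 made up 56.9 to 61.7% in hippocampus and 51.5 to 55.4% in cortex, and Hey1 24.8 to 27.0% in hippocampus and 32.9 to 34.0% in cortex.

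**Figure D2:**
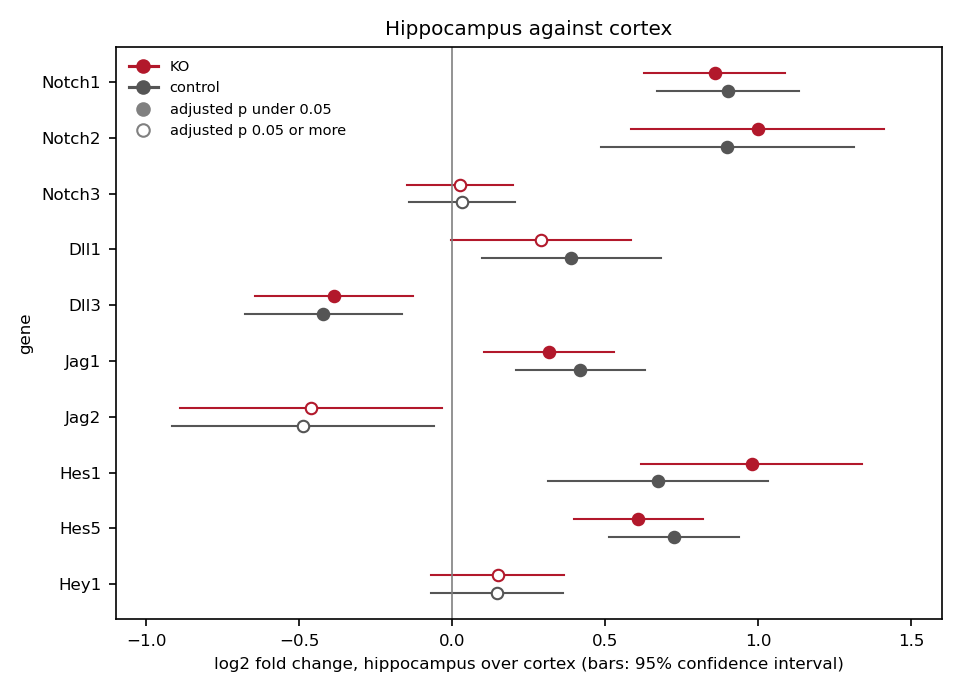
Log2 fold change of each gene, hippocampus over cortex, in KO (red) and in control (grey); bars are 95% confidence intervals from edgeR and filled points have an adjusted p under 0.05. Notch1, Notch2, Hes1 and Hes5 lie at 0.61 to 1.00, Dll3 and Jag2 lie below 0 and Notch3 lies at 0.03 in both genotypes.

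Notch1, Notch2 and Hes5 passed in both genotypes under all 16 alternatives that were run, with adjusted p of at most 0.0428, and Hes1 did so in KO. Most markers of progenitors differed between the tissues in the same direction, where 21.2% of all genes were higher in KO and 19.0% in control. Of 10 radial glia genes 7 were higher and 1 was lower in hippocampus, in KO and in control. The highest expressed was Fabp7, which did not pass (0.24 and 0.17), followed by Vim (log2 fold change 1.74 and 1.67) and Tnc, an extracellular matrix protein (0.82 and 0.90), while Ptprz1 was the one lower (-0.60 and -0.56). Of 8 intermediate progenitor and proneural genes 7 were higher in each genotype, among them Mfap4 (3.39 and 3.29), Insm1 (0.68 and 0.79) and Eomes (1.51 and 1.55). Of 8 cell cycle genes 7 were higher in each, among them Pcna (0.43 and 0.30) and Mki67 (0.73 and 0.70).

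Summed over the list, radial glia genes were at 3266 to 4035 CPM in KO hippocampus, 3499 to 3667 CPM in control hippocampus, 2341 to 2486 CPM in KO cortex and 2434 to 2452 CPM in control cortex. Cell cycle genes were at 973 to 1165 CPM in KO hippocampus, 1027 to 1143 CPM in control hippocampus, 679 to 729 CPM in KO cortex and 721 to 736 CPM in control cortex. Intermediate progenitor genes were at 578 to 643 CPM in KO hippocampus, 532 to 550 CPM in control hippocampus, 217 to 239 CPM in KO cortex and 202 to 217 CPM in control cortex. No gene of these lists was at 0 in both libraries of any group. The part of cell numbers in the levels of the Notch genes was not tested.

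Marker genes of other cell types also differed between the tissues. Beside the counts below, 21.2% of all genes were higher in hippocampus in KO and 19.0% in control, and 18.8% and 14.9% were lower. Of 8 early astrocyte genes 5 were higher in hippocampus and 2 lower, in KO and in control. Microglia genes were higher for 8 of 8 in KO and 7 of 8 in control, genes of the cortical hem for 8 of 8 and of Cajal-Retzius cells for 6 of 7 in each, and choroid plexus genes for 3 of 8 in KO and 6 of 8 in control. The choroid plexus list summed to 48.1 and 45.5 CPM in KO hippocampus and to 29.2 and 207 CPM in control hippocampus, so replicate 2 of control hippocampus stood far above the other 3 hippocampus libraries. Without it 4 of 8 were higher in control, and without replicate 1 of control cortex 3 of 8; without either control hippocampus library 5 of 8 were higher in KO. Oligodendrocyte lineage genes were lower for 5 of 6 in each, and forebrain and neuronal genes for 4 of 6 in KO and 2 of 6 in control. No red blood cell gene of 7 passed in either. The part of these cells in the Notch levels was not tested.

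The other genes of the pathway showed no common direction between tissues. Of 49 listed, 47 were tested (Hes2 and Hes3 had too few counts), of which 14 were higher in hippocampus, 9 were lower and 24 did not pass in KO, where 21.2% of all genes were higher and 18.8% lower. In control 15 were higher, 6 were lower and 26 did not pass, where 19.0% of all genes were higher and 14.9% lower. The medians were -0.03 in KO and 0.00 in control, against 0.03 and 0.01 over all genes. The list of genes that process and glycosylate the receptors had the most higher calls, 7 of 15 in KO and 8 of 15 in control, with none lower, while of 12 modulators 2 were higher and 5 lower in each.

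Lfng, the Fringe enzyme that adds sugar to Notch and changes which ligands it answers, had 19.1 and 19.5 RPKM in KO hippocampus, 18.0 and 18.7 RPKM in control hippocampus, 7.24 and 7.34 RPKM in KO cortex and 6.94 and 7.41 RPKM in control cortex (for Lfng, Neurl1a and Hey2 the lower library of a group is given first). Its log2 fold change was 1.30 in KO (SE 0.08, edgeR adjusted p = 1.5e-05) and 1.28 in control (SE 0.08, adjusted p = 1.65e-05). Its relative Mfng was also higher (0.60 and 0.56), and the third Fringe gene, Rfng, was at -0.33 and -0.29 and did not pass. Rfng did pass in KO with DESeq2 (adjusted p = 0.0425) and in control with edgeR on the 4 control libraries alone (0.0272). Pofut1, which adds the fucose that Fringe enzymes extend, was higher at 0.57 and 0.47, and Adam17, a protease that can cut the receptor outside the cell, at 0.58 and 0.51.

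Of the subunits of gamma-secretase, which cuts the receptor in the membrane, Psenen was higher (0.37 and 0.35), a call lost without replicate 1 of cortex in KO and without replicate 2 of hippocampus or either cortex library in control, while Aph1a was at 0.09 and 0.17 and did not pass. Aph1a did pass in control with limma on log2(RPKM + 1) (adjusted p = 0.0388) and on log2(RPKM + 0.1) (0.0405). The near-identical copies Aph1b and Aph1c can share reads, so their values are uncertain and are not given. Rbpj was higher at 0.33 in KO (SE 0.11, edgeR adjusted p = 0.0454) and 0.35 in control (SE 0.11, adjusted p = 0.0426), close to the threshold and lost without any single control library in control and in 8 of 16 alternatives in KO. Snw1, a partner of RBPJ, was at 0.00 and -0.01.

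Of the genes that let a ligand be pulled into its own cell, Mib1, a ubiquitin ligase for ligands, was higher (0.30 and 0.30), a call lost in 4 of 16 alternatives in KO (without replicate 1 of hippocampus or either cortex library, and with the 4 libraries alone; adjusted p up to 0.0983) and in 3 in control (without replicate 1 of hippocampus or either cortex library; up to 0.163). Neurl1a, a ligase of the Neuralized family, was the most reduced of the named genes, with 2.97 and 3.24 RPKM in KO hippocampus, 3.80 and 4.04 RPKM in control hippocampus, 8.34 and 9.68 RPKM in KO cortex and 8.09 and 9.53 RPKM in control cortex. Its log2 fold change was -1.64 in KO (SE 0.12, edgeR adjusted p = 3.9e-05) and -1.24 in control (SE 0.12, adjusted p = 0.000162). Its relative Neurl1b was lower in KO (-0.55; lost without replicate 1 of hippocampus or of cortex) and did not pass in control (-0.35), and Mib2 was at -0.27 and -0.21 and did not pass.

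Among modulators, Fbxw7, which marks the inner part of Notch for breakdown, was lower in hippocampus (-0.85 and -0.80), as were Dner, a Notch-binding protein of neurons (-0.94 and -0.63), Dtx1 (-0.79 and -0.50) and Dtx4 (-0.69 and -0.66) of the Deltex family. The control calls of Dner and Dtx1 were lost without replicate 2 of hippocampus or replicate 1 of cortex. Dtx3 had the highest level of the list and did not pass (-0.08 in each genotype; 0.02 in KO with limma on log2(RPKM + 1)). Nrarp, a feedback inhibitor and target of Notch, was higher at 0.40 and 0.43.

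Of the Notch pathway genes outside the 10 members, the target Hey2 was higher in hippocampus (1.23 in each genotype), at 3.12 and 3.47 RPKM in KO hippocampus and 2.99 and 3.30 RPKM in control hippocampus, against 1.19 and 1.43 RPKM in KO cortex and 1.27 and 1.28 RPKM in control cortex. Dll4, a ligand of vessels and of some progenitors, was higher as well (0.79 and 0.79). Notch4, the receptor of vessels, was at 1.40 to 1.91 RPKM in all groups and did not pass (0.11 and 0.23), and Hes6, an inhibitor of Hes1 found in differentiating neurons, did not pass (0.13 and 0.10). Hes6 passed in KO with limma on log2(RPKM + 0.1), at 0.24.

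**Figure D3:**
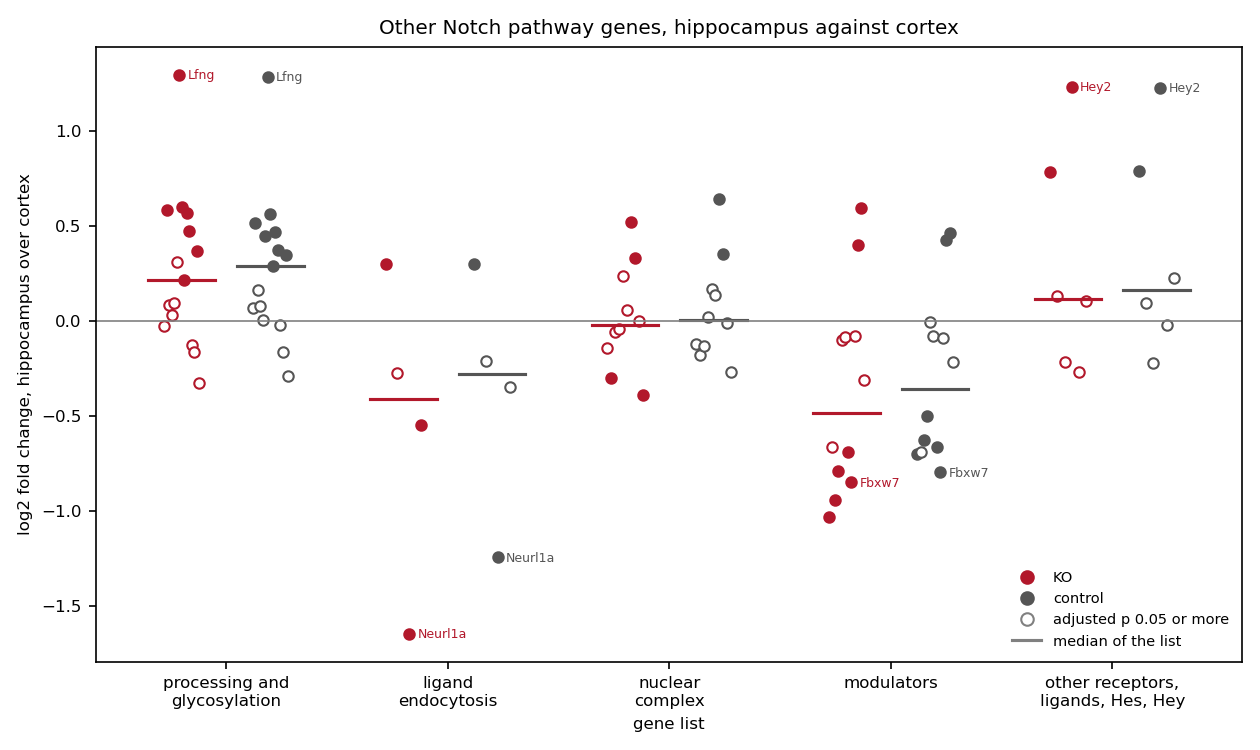
Log2 fold change, hippocampus over cortex, of the 47 other pathway genes tested, by list, with KO in red to the left and control in grey to the right of each; filled points have an edgeR adjusted p under 0.05, short lines are list medians and names mark the 4 genes with the smallest p in each genotype. Lfng and Hey2 lie at 1.23 to 1.30 and Neurl1a at -1.64 in KO and -1.24 in control, while the list medians lie between -0.49 and 0.29.

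The comparison of KO with control is the study's own question, and none of the 10 members passed it in edgeR. In hippocampus 0 of 10 passed, where 0.0248% of all genes did (4 genes), in cortex 0 of 10, where 0.0186% did (3 genes), and with both tissues together 0 of 10, where 0.0621% did (10 genes). No member had an unadjusted p under 0.05 in any of these, where 3.81%, 1.14% and 4.43% of all genes did, and none passed with DESeq2 or with limma. The fitted log2 fold changes, KO over control, lay between -0.12 (Jag1) and 0.16 (Hes1) in hippocampus, between -0.15 (Hes1) and 0.10 (Notch1) in cortex and between -0.07 (Jag1) and 0.08 (Notch2) over both tissues.

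The intervals say how large a change these libraries leave room for. Over both tissues the 95% confidence interval of the log2 fold change was -0.07 to 0.23 for Notch1, -0.03 to 0.19 for Notch3, -0.19 to 0.10 for Hes5 and -0.13 to 0.14 for Hey1. It was wider for Notch2 (-0.19 to 0.35), Jag2 (-0.21 to 0.34) and Hes1 (-0.25 to 0.26), the genes whose replicates lay farthest apart. For Dll1, Dll3 and Jag1 it was -0.16 to 0.22, -0.10 to 0.23 and -0.21 to 0.06. Differences inside these bounds remain compatible with these libraries, so the lack of a call does not show that the genotypes are alike.

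Library by library, both KO values lay outside both control values for 5 members in hippocampus: Notch3, Dll3 and Hes1 above and Jag1 and Hes5 below. Of all genes, 15.3% lay above and 11.8% below in this way. In cortex this held for Notch3, above, where 9.64% of all genes lay above and 11.0% below.

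Hes1 was the member whose KO effect differed most between tissues, with log2 fold changes of 0.16 in hippocampus and -0.15 in cortex. The difference of 0.31 (SE 0.22, 95% confidence interval -0.20 to 0.81) did not pass in edgeR (adjusted p = 1.00), and it rested in part on the control cortex libraries, being 0.09 without replicate 2 and 0.51 without replicate 1. No gene of the 16111 tested passed this test of a difference between tissues (0%; 158 genes, 0.981%, had an unadjusted p under 0.05, and DESeq2 called 0). No member had an unadjusted p under 0.05 in it.

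**Figure D4:**
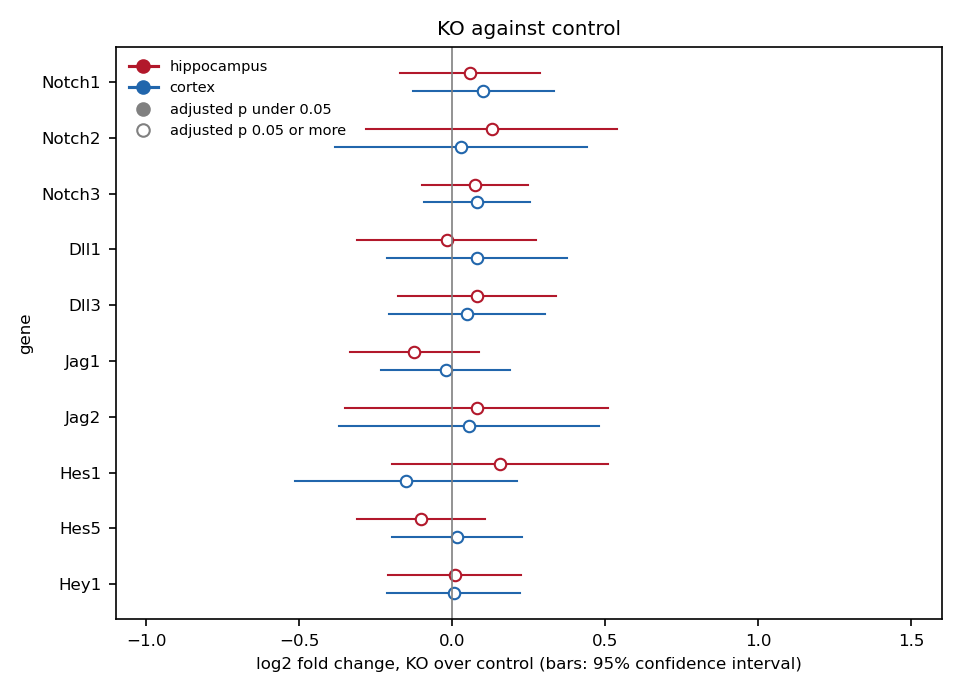
Log2 fold change of each gene, KO over control, in hippocampus (red) and cortex (blue), on the same axis range as the plot of tissue differences; bars are 95% confidence intervals from edgeR. All points are open, since none passed, and lie between -0.15 and 0.16.

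The other pathway genes gave no call between genotypes either: 0 of 47 passed in hippocampus, in cortex or over both tissues, with edgeR, DESeq2 or limma. In hippocampus 3 had an unadjusted p under 0.05, all with lower values in KO, and they are named for that reason after their values were seen: Neurl1a, given above, at -0.36, Dner at -0.37 and Heyl, a further Hey gene, at -0.31 (edgeR adjusted p = 0.992 for each). In cortex and over both tissues 0 had. Lfng was at 0.04 in hippocampus and 0.03 in cortex, Rbpj at 0.06 and 0.07 and Hey2 at 0.04 and 0.03. Over all 47 the log2 fold changes lay between -0.37 and 0.15 in hippocampus and between -0.10 and 0.15 in cortex. Of the 112 marker genes none passed in edgeR in these comparisons, and DESeq2 called 2 over both tissues. With an unadjusted p under 0.05 there were 18 of the 112 in hippocampus (16.1%, against 3.81% of all genes), 2 in cortex (1.79%, against 1.14%) and 19 over both tissues (17.0%, against 4.43%). These counts moved when 1 library was left out. The hippocampus count fell without replicate 1 of KO hippocampus or replicate 2 of control hippocampus or control cortex. The cortex count rose without either KO hippocampus library or replicate 2 of KO cortex. The count over both tissues fell without replicate 1 of KO hippocampus or of control cortex. The number of all genes at this p moved as well. In hippocampus it rose most without replicate 2 of KO hippocampus. The gap between the markers and all genes is therefore not shown to be stable. Leaving out replicate 1 of control hippocampus brought 1 marker, of the choroid plexus, past the adjusted threshold, lower in KO hippocampus.

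The red blood cell list summed to 101 and 61.4 CPM in KO hippocampus, 44.7 and 54.3 CPM in control hippocampus, 76.9 and 65.9 CPM in KO cortex and 47.2 and 58.4 CPM in control cortex. Both KO libraries lay above both control libraries in each tissue, and the median log2 fold change of its 7 genes was 0.71 in hippocampus, 0.45 in cortex and 0.58 over both tissues, against 0.00 over all genes. The 8 choroid plexus genes had a median of -0.63 in hippocampus, which was 0.43 without replicate 2 of control hippocampus. The part of these cells in the members' values between genotypes was not tested.

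Across the 8 libraries the members' levels on the log2(RPKM + 0.1) scale moved in 2 directions. These correlations describe libraries that share tissue, so the gap between tissues sets most of their size. Notch1 was closest to Hes5 (Pearson r = 0.985) and to Notch2 (0.972), and Jag1 to Hes5 (0.956). Dll3 ran against Hes5 (-0.923), Notch2 (-0.893) and Notch1 (-0.891) and with Jag2 (0.774). Notch3, level between tissues, reached at most 0.825 with any other member, Hey1.

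Of 9665 genes with a mean of at least 5 RPKM, those closest to Notch1 by the same measure were Ninj1 (0.998), B9d2 and Spata13, and to Hes5 Pdk3 (0.997), Ndrg2, a gene of astrocytes and radial glia, and Pbxip1. Closest to Notch2 were Rdx (0.996), Kiz and Cenpf, a gene of mitosis, and to Jag1 Cbfb (0.998), Rfk and E2f3. Dll1 lay nearest to Lmf2 (0.996), Mrpl4 and Map2k3, Jag2 to Pik3cd (0.993), Znrf1 and Podxl2, and Dll3 to Pim1 (0.984), Stmn4 and Lcmt1. Hey1 lay nearest to Rilpl1 (0.984), Plcb3 and Foxo4, and Notch3 to Ntng2 (0.983), Bak1 and Lrrc8a.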

How the data were processed

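The authors deposited 8 tables of RPKM values and whole-number read counts per Ensembl gene. The 12 samples share these 8 tables (runs 1 and 2 of replicate 1 have 1 table), used as 8 libraries in 4 groups. Per the labels' protocols, RNA came from Tri Reagent and libraries from the TruSeq kit; per the submitters' processing notes, Bowtie and mm9 were used. No source used here gives the counting rule, strand or annotation. The deposited RPKM column, another unit than counts, holds 1114 cells reading "ne" per table, treated as missing. Blank counts were read as 0. GENCODE M21 named 20759 of 22667 IDs. edgeR 4.0.16 (R 4.3.3; TMM, filterByExpr with a minimum count of 10 and total of 15) tested 16111 genes with quasi-likelihood F tests, two-sided, Benjamini-Hochberg adjusted over all genes, threshold 0.05. The fits were of 4 group means, with an additive tissue and genotype model for KO over both tissues. limma 3.58.1, DESeq2 1.42.0, RLE scaling, other filters, a replicate block and leaving out libraries were alternatives. Named pathway genes are the 8 with the smallest p that passed in a comparison, the 3 highest in each list, and Notch4, Dll4, Rbpj and Lfng; a few genes are not reported here. Members and lists were chosen with earlier results of these data known. SE is the standard error of a log2 fold change. Counts limit precision little here: a floor of 3 counts is 0.0214 to 0.0515 CPM.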

Additional observations from a re-analysis of the deposited data

How the results depend on the processing

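The calls for Notch1, Notch2 and Hes5 between tissues and the absence of any member's call between genotypes held under all alternatives run. Members called between tissues numbered 4 to 6 in KO and 3 to 8 in control when 1 library was left out (3 without replicate 1 of control cortex, 4 without replicate 2 of control hippocampus). Over all genes, calls between tissues were then 4156 to 6364 in KO and 3231 to 6000 in control, the lowest without replicate 1 of cortex KO and of cortex control. Genes called between KO and control in hippocampus, 4, numbered 18 with DESeq2, 2 with genes of at least 1 RPKM in 2 libraries, with limma on log2(RPKM + 1) and with the 4 libraries alone, and 2 to 6 with a library left out. In cortex 3 became 11 with DESeq2, and over both tissues 10 became 37 with DESeq2.

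Samples with the same replicate number are not said to be paired. Their deviations from the group means correlated between groups at 0.0961 to 0.38. The highest values were between hippocampus and cortex of KO (0.38) and between hippocampus and cortex of control (0.368). In replicate 2, Y-linked counts were also lowest in both KO tissues and highest in both control tissues. The main tests took the libraries as unpaired, and whether the tissues of a replicate share embryos was not tested. With the replicate number as a block, 8 members passed between tissues in each genotype, with Jag2 gained in both (adjusted p = 0.00264 in KO and 0.00195 in control) and Dll1 in KO (0.0175), and 8151 and 7053 genes were called in KO and control. Of the other named pathway genes, Rfng was gained in both genotypes (edgeR adjusted p = 0.00796 in KO and 0.0161 in control). Mib2 was gained in KO (0.0252) and Neurl1b in control (0.0174). The block called 22 genes for KO over both tissues, 6 in hippocampus and 4 in cortex, with no member among them.

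Among single genes, 8 calls were lost and 17 gained over the other settings, and 45 were lost and 7 gained with a library left out, against 742 and 692 values that kept their side of the threshold and their sign. Sign changes fell on values that had not passed. With a library left out these included Hes1 between genotypes in cortex (-0.15) and Notch2 between genotypes in hippocampus (0.13). Between tissues in KO, Notch3 was at -0.0034 with DESeq2 and -0.0030 with RLE scaling, Dtx3 at 0.0215 and 0.0218 with limma (pseudocounts 1 and 0.1), and Snw1 at -0.0284 with DESeq2, -0.0285 with RLE, -0.0015 unfiltered and -0.0011 with the block. In control, Snw1 was at 0.0084 with the RPKM filter and 0.0631 and 0.0643 with limma. Between genotypes in hippocampus, Dll1 was at 0.0043 and 0.0042 with limma and Hey1 at -0.0006 with DESeq2.

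Leaving out 1 library gave these ranges where a sign turned. Between tissues in KO they were Notch3 -0.0036 to 0.0517, Aph1a -0.0109 to 0.1760, Dtx3 -0.3287 to 0.1381, Notch4 -0.0189 to 0.2224 and Snw1 -0.1122 to 0.1011, and in control Notch3 -0.0380 to 0.1029, Dtx3 -0.2971 to 0.1083 and Snw1 -0.0753 to 0.0564. KO against control in hippocampus gave Notch1 -0.0609 to 0.1853, Notch2 -0.1707 to 0.3712, Dll1 -0.1875 to 0.1347, Jag2 -0.1463 to 0.2774 and Hey1 -0.0747 to 0.0844. In cortex it gave Notch2 -0.1249 to 0.1662, Dll1 -0.0648 to 0.2193, Jag1 -0.0598 to 0.0116, Jag2 -0.1800 to 0.2607, Hes1 -0.3589 to 0.0691, Hes5 -0.0694 to 0.1019 and Hey1 -0.0414 to 0.0503. Over both tissues it gave Notch2 -0.0501 to 0.1693, Dll1 -0.0368 to 0.1029, Jag2 -0.0253 to 0.1521, Hes1 -0.0716 to 0.1233, Hes5 -0.0873 to 0.0015 and Hey1 -0.0274 to 0.0366. The cause of these changes was not tested. Where an arm was left with 1 library, it is assumed to vary like the other groups.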

Other observations

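The replicate number carried a difference of its own for 2 members. In the fit with the number as a term, Jag2 was higher in replicate 2 than in replicate 1 by 0.33 on the log2 scale (SE 0.06, edgeR adjusted p = 0.0183), in 4 of 4 groups, and Notch2 was lower, with a log2 difference of -0.31 (SE 0.06, edgeR adjusted p = 0.0308), also in 4 of 4 groups. Over all genes 1273 of 16111 (7.90%) passed this test. Notch1, at -0.15, and Dll1, at 0.19, did not pass (adjusted p = 0.0751 and 0.082). Replicate 1 was the deeper library in every group, and Y-linked counts differed between the replicates as given above; their part in these differences was not tested.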
